A study of Mus musculus with 72 samples.

Results

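The 10 genes followed here belong to the NF-kB pathway and were measured in mouse colon. They are the subunits Rela, Relb and Nfkb2, the IkB family genes Nfkbia, Nfkbie and Nfkbiz, and the feedback and survival genes Tnfaip3, Tnip1, Birc3 and Traf1. They were listed by name with earlier results of these arrays known, and are 10 of the 18193 genes with a usable probe set. Each gene was read from its probe set with the highest mean over 72 arrays, 1 array per mouse. All 10 passed the filter on dim genes, which left 12534 genes in the tests.

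NF-kB is a family of transcription factors held inactive in the cytoplasm by IkB proteins. In the canonical branch, signals such as TNF or IL-1 lead to destruction of IkB and release of dimers that contain Rela. In the non-canonical branch, receptors such as the TWEAK receptor lead to processing of the Nfkb2 precursor, whose product pairs with Relb. Active NF-kB induces genes for its own inhibitors, and in the inflamed colon the pathway is known for driving cytokines and chemokines that draw in leukocytes.

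All mice were wild type Balb/c, and whole colon was rolled and frozen before a piece was cut for RNA. Acute colitis was induced by intrarectal TNBS, a hapten given in ethanol, at 70 ug/g body weight, and tissue was taken on day 4. Naive mice (8) received no TNBS. Untreated mice (8) received TNBS alone. The control antibody group (15) also received 10 mg/kg of an IgG2a against human CD20. The TNFR-Ig group (12) received 0.3 mg/kg of a soluble TNF receptor fusion, a dose chosen by the submitters to be only weakly effective. The anti-TWEAK group (14) received 10 mg/kg of the antibody mP2D10. The combination group (15) received 0.3 mg/kg TNFR-Ig and 10 mg/kg anti-TWEAK. Agents were injected before TNBS, and mice given TNFR-Ig alone received no control antibody. The study was run as 2 experiments, numbered 7 (34 arrays) and 10 (38 arrays), and all naive mice belong to experiment 10. Age and sex are not given in the labels. The TNBS model is acute and chemical, and values come from whole tissue, so fewer cells of a type and less RNA per cell cannot be told apart.

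Values are log2 signals as deposited. Array medians lay between 4.60 and 4.77. The marker mean of colon epithelium (14 genes) was 14.28 to 14.33 in naive mice and 13.95 to 14.28 in mice given TNBS. Markers of exocrine pancreas, tested by 5 genes, ranged from 4.41 to 11.26 in naive mice and from 4.39 to 13.65 in the combination group. Neutrophil markers (10 tested) had means of 2.48 to 4.13 in naive and 8.64 to 11.75 in untreated mice. Corresponding ranges were 6.53 to 11.28 with control antibody and 7.76 to 10.38 with TNFR-Ig. They were 5.31 to 11.04 with anti-TWEAK and 4.19 to 9.67 with the combination. The neutrophil genes Ngp and Camp were at the floor on more than 50% of the 72 arrays, a share not counted by group. A single array stood apart: combination array 7 of experiment 7 had the lowest limma array weight of all 72 (0.201), and it was the highest of its 8 arrays for 8 of the genes (Rela, Relb, Nfkbia, Nfkbie, Nfkbiz, Tnfaip3, Tnip1 and Birc3) and the lowest for Traf1. By their labels, it and combination array 8 were run with the arrays of experiment 10. Counts of the 10 genes called for the combination are given with and without it. Leaving it out by itself lowers the combination means of the genes it was highest for and raises that of Traf1. Calls of lower levels in that fit are thus not independent of the values that set this array apart. The array of the first naive mouse also carries a treatment label that contradicts its title, and was kept as naive.

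Promoters of the genes were searched for the kB motif, the DNA element bound by NF-kB. Windows of 250 bases before to 50 bases after the start site were available from RefSeq (GRCm38.p6) for 8 of the 10 genes. Relb and Nfkbiz had no entry. Both strands were searched, and a palindromic match counts on both. A match was present for 5 of the 8 genes (Nfkbia, Nfkbie, Tnip1, Tnfaip3 and Nfkb2) and none was found in these windows for Rela, Birc3 and Traf1. Of all 32851 windows in the table, 4.51% held a match, and 5.14% of 27025 genes did so in any window. Windows are shown, with matches in capitals, for Nfkbia and Nfkbie, which rose in colitis and were lower with the combination than in untreated mice. That of Tnip1, the gene that differed between TNFR-Ig and control antibody, is shown likewise. All of them read 5' to 3' on the strand of the gene.
Nfkbia (chr12:55492598-55492897, minus strand): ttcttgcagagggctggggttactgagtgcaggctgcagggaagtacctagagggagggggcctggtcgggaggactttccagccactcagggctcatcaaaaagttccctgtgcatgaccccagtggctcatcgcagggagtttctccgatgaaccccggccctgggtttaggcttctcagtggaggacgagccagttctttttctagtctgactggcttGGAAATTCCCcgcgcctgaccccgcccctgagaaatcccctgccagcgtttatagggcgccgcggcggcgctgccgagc
Nfkbie (chr17:45555450-45555749, plus strand): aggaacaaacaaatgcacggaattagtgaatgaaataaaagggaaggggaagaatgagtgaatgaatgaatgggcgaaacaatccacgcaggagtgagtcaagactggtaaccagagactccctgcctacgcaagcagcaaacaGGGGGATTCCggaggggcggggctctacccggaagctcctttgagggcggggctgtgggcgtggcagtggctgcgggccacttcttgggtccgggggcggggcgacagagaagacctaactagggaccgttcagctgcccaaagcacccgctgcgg
Tnip1 (chr11:54962891-54963190, minus strand): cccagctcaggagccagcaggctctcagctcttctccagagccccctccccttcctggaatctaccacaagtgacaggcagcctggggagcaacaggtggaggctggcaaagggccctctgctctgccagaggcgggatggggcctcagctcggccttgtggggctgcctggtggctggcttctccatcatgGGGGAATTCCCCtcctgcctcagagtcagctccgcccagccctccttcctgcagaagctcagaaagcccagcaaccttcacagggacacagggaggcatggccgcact
The Nfkbia match lies on the opposite strand and begins at position -29 from the start site. The Nfkbie match begins at -106, and overlapping Tnip1 matches begin at -58. In Tnfaip3, GGGACACCCC begins at -125 and GGGGATTTCC, on the opposite strand, at -12. The palindrome GGGAATTCCC occurs in a window of Nfkb2 as well as in that of Tnip1. These matches describe letters in a window and do not show binding.

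Colitis, the comparison of untreated with naive mice, was marked by higher Nfkbie, Nfkbia and Rela. Nfkbie, which encodes IkB-epsilon, was higher by 1.23 ± 0.19 (SE) on the log2 scale, a 2.34-fold difference. Nfkbia, which encodes IkB-alpha, was higher by 0.36 ± 0.08, and Rela, the main activating subunit of the canonical branch, by 0.21 ± 0.06. The brighter probe set of Nfkb2 was lower and its other probe set higher. The other 6 genes did not pass the test. The linear model had a term for each group and for the experiment, was fitted with limma to 12534 genes, and called a gene at a Benjamini-Hochberg adjusted p under 0.05. It called 47.8% of all genes in this comparison, so 4 of 10 is close to the background. The median of the 10 genes was 0.067, against -0.0085 for all genes tested.

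The levels of Nfkbie were 6.82, 7.25 and 7.49 (lowest, median, highest) in 8 naive mice and 7.40, 8.68 and 8.78 in 8 untreated mice. All untreated mice but 1 lay above every naive mouse. Nfkbia ran from 13.51 to 13.71 (median 13.63) in naive and from 13.73 to 14.24 (median 14.05) in untreated mice, with no overlap. Rela ran from 8.71 to 9.02 (median 8.96) in naive and from 9.04 to 9.31 (median 9.09) in untreated mice, also with no overlap. For Rela the margin was small, with the highest naive mouse at 9.024 and the lowest untreated mouse at 9.041. The latter is the identical value found on 8 of the 72 arrays. The share of all genes without overlap between these groups was not counted. The limma adjusted p was 1.59e-07 for Nfkbie, 0.00013 for Nfkbia and 0.0020 for Rela.

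Nfkb2 encodes the precursor and inhibitor of the non-canonical branch. Its brighter probe set lay between 7.28 and 7.66 (median 7.49) in naive and between 6.85 and 7.43 (median 7.14) in untreated mice. On this probe set 7 of 8 untreated mice lay below all naive mice, and the fitted difference was -0.32 ± 0.09 (limma adjusted p 0.0037). The dimmer probe set gave 5.44 to 6.16 (median 5.81) in naive and 5.99 to 6.79 (median 6.21) in untreated mice, a difference of 0.56 ± 0.16 (limma adjusted p over all probe sets 0.0031). The direction of Nfkb2 is therefore not settled by these arrays. The brighter probe set carries the suffix that marks probes which may match other sequences, and 11 of its 72 values are the identical 7.15. Relb, the partner subunit, was 7.75, 8.24 and 8.49 in naive and 7.56, 7.85 and 8.28 in untreated mice, and the groups overlapped (-0.24 ± 0.12, limma adjusted p 0.10).

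**Figure D1:**
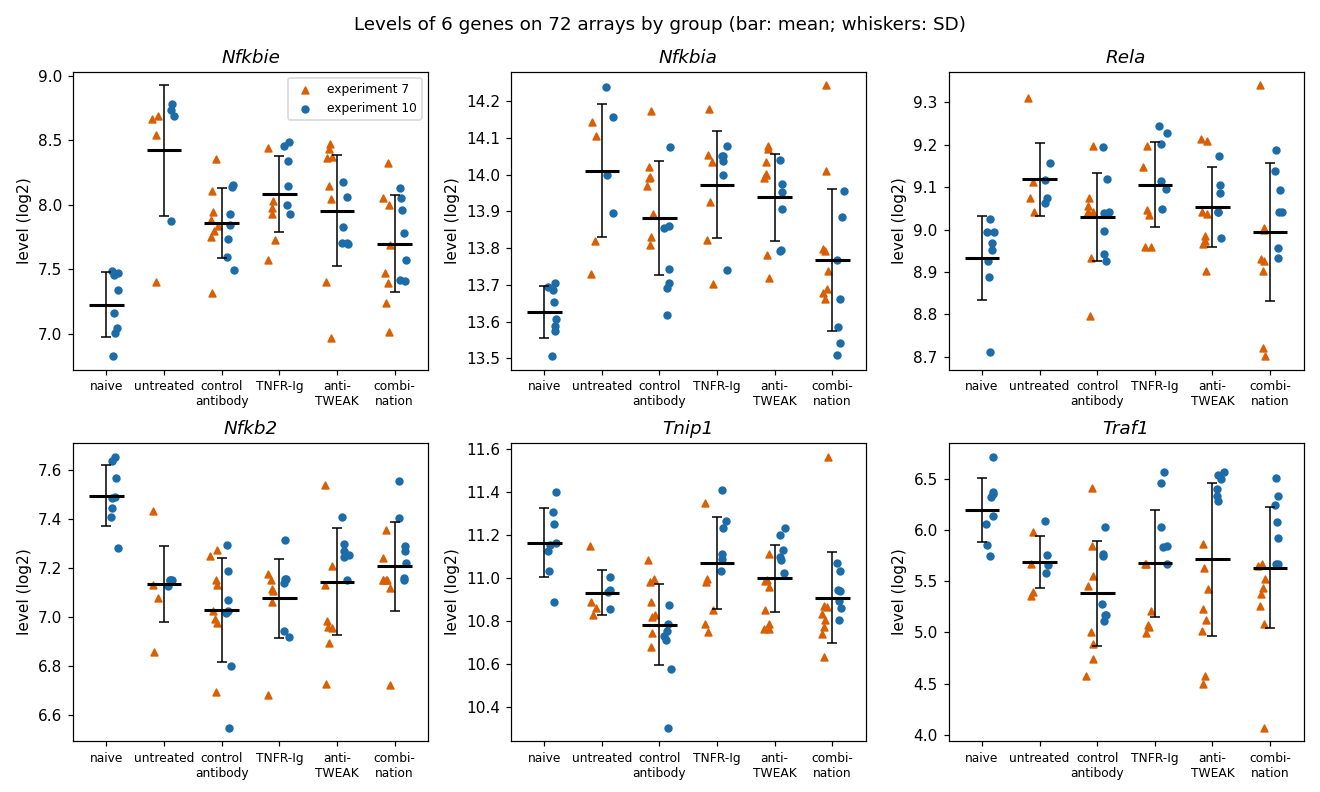
Log2 levels of 6 of the genes on each of the 72 arrays by group; triangles are experiment 7, circles experiment 10, bars the group mean and whiskers the SD. Nfkbia in untreated mice lies wholly above naive mice, and combination array 7 of experiment 7 is the triangle at 11.56 for Tnip1 and at 4.07 for Traf1.

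The 4 feedback and survival genes and Nfkbiz did not pass the test in this comparison. Tnfaip3, a ubiquitin-editing enzyme that switches TNF receptor signalling off, was 10.80, 11.05 and 11.20 in naive and 10.45, 11.02 and 11.45 in untreated mice. The untreated range contained the naive range, and the difference was 0.03 with a 95% interval of -0.23 to 0.29. Tnip1, a ubiquitin-binding partner of the Tnfaip3 protein, was 10.89, 11.16 and 11.40 in naive and 10.82, 10.91 and 11.15 in untreated mice (-0.20 ± 0.09, limma adjusted p 0.065). Nfkbiz, a nuclear IkB protein needed for a subset of target genes, was 12.66, 12.81 and 12.94 in naive and 12.59, 12.95 and 13.32 in untreated mice. Its main probe set gave 0.10 ± 0.08 and its dimmest probe set 0.61 ± 0.23 (limma adjusted p over all probe sets 0.024). For Birc3, a ubiquitin ligase that protects cells from TNF-induced death, the values were 11.52, 11.59 and 11.72 in naive and 11.49, 11.74 and 11.98 in untreated mice (0.15 ± 0.08, limma adjusted p 0.13). Traf1, an adaptor of TNF receptors, was 5.75, 6.23 and 6.72 in naive and 5.36, 5.67 and 6.09 in untreated mice. Its fitted difference was -0.17 ± 0.23, and the ranges overlapped. This value is smaller than that of the raw groups because the model takes the experiment into account. The experiment term is shared by all groups (0.67 ± 0.11 for Traf1), while the range of untreated mice shifted less between experiments, so the fitted value depends on that shared term.

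Within experiment 10, the only experiment with naive mice, 7 of the 10 genes were called (47.9% of all genes). Besides Nfkbie (1.30 ± 0.17), Nfkbia (0.45 ± 0.08), Rela (0.17 ± 0.05) and Nfkb2 (-0.35 ± 0.09), they included Birc3 (0.17 ± 0.07), Relb (-0.32 ± 0.11) and Tnip1 (-0.23 ± 0.08). Nfkbie, Nfkbia, Rela and Birc3 were thus higher, and Nfkb2, Relb and Tnip1 lower, in 4 untreated than in 8 naive mice.

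The size of the rise depended on the probe set. Nfkbia has 5 probe sets, and all gave a called rise in colitis. Ordered from the brightest to the dimmest, with means over 72 arrays of 13.87, 13.49, 13.13, 12.37 and 11.18, the differences were 0.36, 0.35, 0.46, 0.62 and 0.70. Nfkbie gave 1.23 on its brighter probe set (mean 7.87) and 1.88 ± 0.27 on its dimmer one (mean 6.05). A probe set's signal is not a transcript level, so the brightness orders the probe sets and nothing else. Rela, Relb and Tnip1 have only 1 probe set, and the dimmer probe sets of Tnfaip3 and Traf1 lay below the filter.

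**Figure D2:**
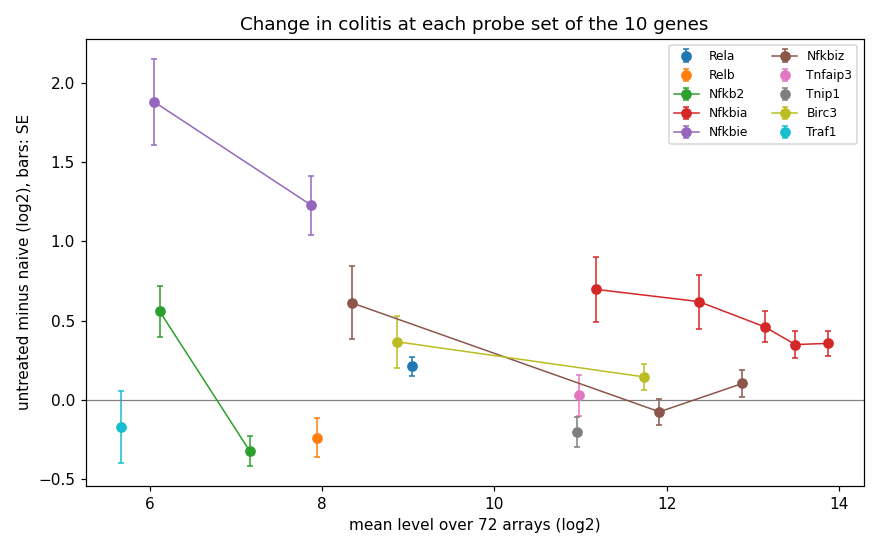
Untreated minus naive difference (log2, bars SE) of each tested probe set of the 10 genes against its mean over 72 arrays; lines join probe sets of a gene. The differences of Nfkbia run from 0.35 to 0.70, and those of Nfkb2 have opposite signs (-0.32 and 0.56).

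Other genes of the pathway were read beside these 10 from lists chosen with the same knowledge. Of all genes tested, 22.2% were called higher and 25.6% lower. Of 31 tested canonical NF-kB targets, 21 rose and 2 fell in colitis, with a list median of 0.81 against -0.0085 for all genes. Cxcl2, a neutrophil chemokine, rose by 9.11 ± 0.82, and Lcn2, an antimicrobial siderophore-binding protein, by 8.37 ± 0.87 on the log2 scale. Their naive medians were 2.52 and 4.85 against a floor of 2.077, where differences are compressed, so the size for Cxcl2 in particular is not exact. Among 4 other tested subunits and IkB proteins, Bcl3 (0.93 ± 0.17) and Nfkbid (0.41 ± 0.17), both nuclear IkB family members, rose. Of 13 other brakes 4 rose and 2 fell, led by Irak3, an inhibitor of IL-1 receptor signalling, at 1.95 ± 0.30, while the deubiquitinase Cyld fell by 0.22 ± 0.04. Of 11 kinases 5 rose and 2 fell, and Map3k8, a kinase bound by an Nfkb family precursor, rose by 2.25 ± 0.57.

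Receptors gave 4 rises and no fall among 10, among them the TWEAK receptor Tnfrsf12a (1.50 ± 0.25) and the TNF receptors Tnfrsf1b (1.30 ± 0.15) and Tnfrsf1a (0.66 ± 0.12). Of 11 adaptors and ubiquitin ligases at the TNF receptor, 1 rose and 2 fell, and Traf5 fell by 0.48 ± 0.13. Of 4 tested non-canonical targets 2 rose and 1 fell, and the lymphoid chemokine Cxcl13 rose by 2.56 ± 0.47. Among 4 tested ligands 2 rose and 1 fell, and Il1b rose by 9.35 ± 0.75. The naive median of Il1b was 2.73, near the floor of 2.077, so this size is not exact either. Tnf itself was within 0.1 of the floor on all 8 naive and 5 of 8 untreated arrays and was not tested. In the same comparison all 10 tested neutrophil markers and all 14 tested monocyte and macrophage markers rose (medians 7.42 and 1.87), as did 7 of 8 endothelial and 7 of 8 fibroblast markers (0.88 and 0.56), while all 7 smooth muscle markers (-0.32) and 9 of 14 epithelial markers (-0.10) fell. The part of these cells in the changes of the NF-kB genes was not tested.

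Against naive mice, the treated groups kept part of the pattern. With control antibody 6 of the 10 genes were called (52.8% of all genes): Nfkbie (0.67 ± 0.16), Nfkbia (0.23 ± 0.07) and Rela (0.12 ± 0.05) were higher, and Nfkb2 (-0.42 ± 0.08), Tnip1 (-0.35 ± 0.08) and Relb (-0.31 ± 0.11) were lower. With TNFR-Ig (43.8% of all genes) and with anti-TWEAK (42.7%), 5 genes were called in each: Nfkbie (0.89 and 0.77), Nfkbia (0.32 and 0.28), Birc3 (0.24 and 0.23) and Rela (0.20 and 0.15) were higher and Nfkb2 (-0.38 and -0.30) was lower. With the combination 3 genes were called, against 25.3% of all genes. Nfkbie was higher (0.51 ± 0.16), and Nfkb2 (-0.25 ± 0.08) and Tnip1 (-0.23 ± 0.08) were lower. The same 3 were called without combination array 7 of experiment 7 (27.3% of all genes). Fitted on experiment 10 alone, 5 were called (36.7% of all genes): Nfkbie (0.54 ± 0.14), Birc3 (0.16 ± 0.06) and Rela (0.12 ± 0.05) were higher, and Tnip1 (-0.23 ± 0.07) and Nfkb2 (-0.20 ± 0.08) lower.

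The Nfkb2 values are those of its brighter probe set. The dimmer one lay above naive in all 4 of these groups, by 0.42 with control antibody, 0.56 with TNFR-Ig, 0.51 with anti-TWEAK and 0.17 with the combination. The call on Rela with control antibody was lost on leaving out any of 6 arrays, and also with no experiment term, with quantile normalization and with the compared groups alone. Calls that were lost with the compared groups alone also included Nfkb2 with anti-TWEAK and both Nfkb2 and Tnip1 with the combination. The call on Tnip1 with the combination was lost on leaving out any of 6 arrays and with no filter on dim genes, that on Nfkb2 with the combination on leaving out either of 2 naive arrays, and that on Rela with anti-TWEAK without naive array 5. These 4 comparisons and the untreated one share the same 8 naive mice.

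Nfkbie and Nfkbia were lower with the combination than in untreated colitis. Nfkbie ran from 7.01 to 8.33 (median 7.69) in 15 combination mice, against 7.40 to 8.78 (median 8.68) in untreated mice. The ranges overlapped, and the median fell to below all but 1 of the untreated values. The difference was -0.72 ± 0.16 (1.65-fold, limma adjusted p 0.0006). Nfkbia ran from 13.51 to 14.24 (median 13.74), against 13.73 to 14.24 (median 14.05), a difference of -0.25 ± 0.07 (limma adjusted p 0.0047). The combination mice spread from the naive range to the top of the untreated range. These were 2 of 10 genes, with 24.6% of all genes called, so the count is close to the background. Control antibody mice also had lower Nfkbie than untreated mice (-0.56 ± 0.16). Over all arrays, neither gene was called for the combination against control antibody (Nfkbie -0.16 ± 0.13, Nfkbia -0.11 ± 0.06).

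Every probe set of Nfkbie and Nfkbia gave a called fall in this comparison, from -0.24 to -0.62 over the 5 of Nfkbia, and -1.08 ± 0.23 on the dimmer one of Nfkbie. Without combination array 7 of experiment 7, Rela (-0.15 ± 0.05, limma adjusted p 0.013) and Tnfaip3 (-0.28 ± 0.10, limma adjusted p 0.036) were called as well, and 24.8% of all genes. In experiment 10 alone 3 genes were called (24.3% of all genes): Nfkbie (-0.76 ± 0.17), Nfkbia (-0.37 ± 0.08) and Tnfaip3 (-0.32 ± 0.12). In experiment 7 alone none was called (6.99% of all genes), with Nfkbie at -0.68 ± 0.27 and Nfkbia at -0.12 ± 0.10, while 2 of the 10 had an unadjusted limma p under 0.05.

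Other genes of the pathway were read in the same comparison, in which 13.9% of all genes were called higher and 10.6% lower. Of 31 canonical targets 22 fell and 3 rose against untreated colitis, with a list median of -0.47 against 0.018 for all genes. Among those that fell, Il6 changed by -3.72 ± 0.86 (5 of 15 combination arrays within 0.1 of the floor), Lcn2 by -3.26 ± 0.74 and the chemokine Ccl2 by -2.62 ± 0.57. Among 10 receptors 6 fell and none rose, with Tnfrsf12a at -0.75 ± 0.22, Tnfrsf1b at -0.71 ± 0.13 and Tnfrsf1a at -0.34 ± 0.10. Bcl3 (-0.51 ± 0.14), Irak3 (-1.27 ± 0.25) and Map3k8 (-1.75 ± 0.48) fell, whereas Traf5 (0.54 ± 0.11) and Cyld (0.17 ± 0.03) rose. Of the neutrophil markers 9 of 10 and 13 of 14 monocyte and macrophage markers fell, with medians of -3.07 and -0.83. Without combination array 7 of experiment 7, a count of list members added after seeing the data, 22 canonical targets fell and 2 rose, 6 receptors fell and 1 rose, and the counts of these markers were again 9 and 13. Of 8 endothelial and 8 fibroblast markers 5 each fell (medians -0.44 and -0.25), and 3 of 5 T cell markers rose. The part of these cells in the falls of Nfkbie and Nfkbia was not tested.

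**Figure D3:**
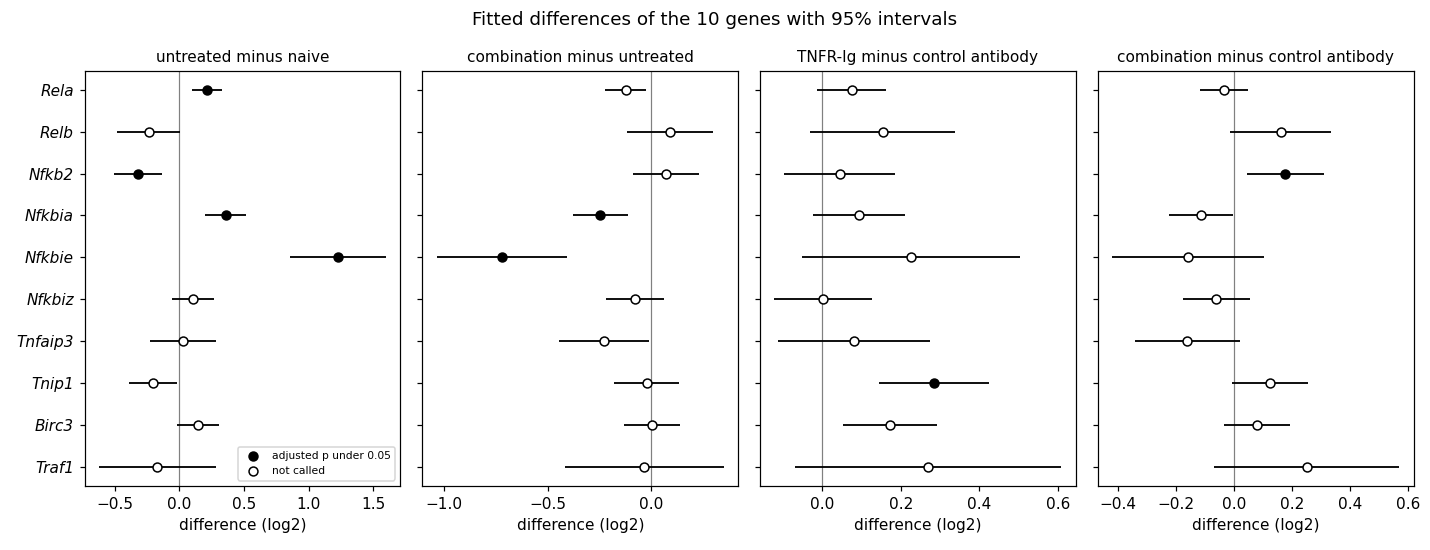
Fitted log2 differences of the 10 genes with 95% intervals in 4 comparisons; filled points have an adjusted p under 0.05. Nfkbie and Nfkbia are the filled points to the right in untreated minus naive (1.23 and 0.36) and to the left in combination minus untreated (-0.72 and -0.25); each panel has its own scale.

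Mice given the control antibody had lower Nfkbie than untreated mice. With control antibody Nfkbie was 7.31, 7.84 and 8.35 over 15 mice. These mice overlapped the lowest 2 of the untreated range and lay below the other 6. The difference from untreated mice was -0.56 ± 0.16 (limma adjusted p 0.017), the only call among the 10 genes, with 10.3% of all genes called. Without untreated array 5 of experiment 10 the limma adjusted p was 0.0511. In experiment 10 alone, Nfkbie (-0.68 ± 0.17), Nfkbia (-0.28 ± 0.08) and Tnip1 (-0.26 ± 0.08) were lower (17.8% of all genes), and in experiment 7 alone none was called (0.0479% of all genes; Nfkbie -0.45 ± 0.27), with no unadjusted limma p under 0.05 among the 10. Of the monocyte and macrophage markers 12 of 14 fell with the control antibody (median -0.68), and of the neutrophil markers 3 of 10, of the endothelial markers 4 of 8 and of the fibroblast markers 5 of 8. The part of these cells in the Nfkbie difference was not tested. Treated groups were compared with both the untreated and the control antibody mice.

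Single agents against untreated mice gave no call among the 10 genes. With TNFR-Ig, limma called none of them and 3.01% of all genes, and 1 of the 10, Nfkbie (-0.34 ± 0.16, limma adjusted p 0.27), had an unadjusted p under 0.05. For anti-TWEAK, limma called none of them and 6.1% of all genes, again with 1 gene, Nfkbie (-0.46 ± 0.16, limma adjusted p 0.064), at an unadjusted p under 0.05. In experiment 10 alone, anti-TWEAK gave lower Nfkbie (-0.66 ± 0.17) and higher Traf1 (0.66 ± 0.19) than in untreated mice, and 29.7% of all genes were called.

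Tnip1 was higher with TNFR-Ig than with control antibody. Tnip1 was 10.30, 10.78 and 11.08 in 15 control antibody mice and 10.75, 11.06 and 11.41 in 12 TNFR-Ig mice. The ranges overlapped, and 6 of 12 TNFR-Ig mice lay above all controls. The difference was 0.29 ± 0.07 (1.22-fold, limma adjusted p 0.012), and it was the only call among the 10, with 4.08% of all genes called. Birc3 followed with 0.17 ± 0.06 (limma adjusted p 0.083). Fitted values were above 0 for all 10 genes, with a median of 0.12 against -0.0012 for all genes, and Nfkbiz was nearest 0 (0.00 ± 0.06). In the same comparison 5 of 14 monocyte and macrophage markers (list median 0.42), 1 of 8 endothelial and 1 of 8 fibroblast markers rose, and none of 10 neutrophil markers was called (median 0.58). Their part in the shift was not tested. With anti-TWEAK, limma called none of the 10 against control antibody and 2.8% of all genes, and 3 had an unadjusted p under 0.05. Tnip1 was nearest to a call (0.22 ± 0.07, limma adjusted p 0.059), and all 10 fitted values were again above 0 (median 0.11 against -0.0018). Both comparisons share the same 15 control mice. TNFR-Ig mice received no control antibody, so in the first comparison agent and antibody cannot be told apart. Against untreated mice, fitted values were above 0 for 0 of the 10 genes with control antibody (median -0.095). They were above 0 for 4 with TNFR-Ig (median -0.012) and 7 with anti-TWEAK (median 0.024). Tnip1 against untreated mice was 0.14 ± 0.08 with TNFR-Ig (limma adjusted p 0.39) and -0.15 ± 0.08 with control antibody (limma adjusted p 0.22).

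Fitted by experiment, both agents gave calls against control antibody in experiment 10. There, TNFR-Ig gave 4 calls against control antibody (15.6% of all genes): Tnip1 (0.51 ± 0.07), Birc3 (0.31 ± 0.06), Relb (0.38 ± 0.10) and Traf1 (0.60 ± 0.17). Anti-TWEAK gave 6 calls (14.9% of all genes): Traf1 (0.97 ± 0.17), Tnip1 (0.45 ± 0.07), Relb (0.36 ± 0.10), Tnfaip3 (0.32 ± 0.10), Nfkb2 (0.28 ± 0.08) and Birc3 (0.26 ± 0.06). All of these were higher than with control antibody, which the TNFR-Ig mice did not receive. Against untreated mice of that experiment, TNFR-Ig gave 0 calls among the 10 (6.29% of all genes). Anti-TWEAK gave higher Traf1 and lower Nfkbie there (29.7% of all genes). Control antibody gave 3 calls against untreated mice, all lower: Nfkbia, Nfkbie and Tnip1 (17.8% of all genes). For Tnip1 and Relb the 6 mice of either agent lay wholly above the 7 control mice of that experiment. For Relb the margin was small, with the highest control at 7.946 and the lowest mouse at 7.964 with TNFR-Ig and 7.963 with anti-TWEAK. How many of all genes separate in this way was not counted.

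In experiment 7 neither agent gave a call by limma (0% of all genes in both), and none of the 10 genes had an unadjusted p under 0.05. Tnip1 there was 0.07 ± 0.10 with TNFR-Ig and 0.02 ± 0.10 with anti-TWEAK. A test of the difference between experiments passed for Traf1 under anti-TWEAK, and limma called 215 of all 12534 genes in it. The difference of Traf1 from control antibody was -0.14 in experiment 7 and 0.97 in experiment 10, apart by 1.11 ± 0.30 (limma adjusted p 0.037). For Tnip1 the experiments differed by 0.43 ± 0.12 under anti-TWEAK (limma adjusted p 0.054) and by 0.44 ± 0.13 under TNFR-Ig (limma adjusted p 0.27). Neither passed, and under TNFR-Ig the test called 0 of 12534 genes.

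**Figure D4:**
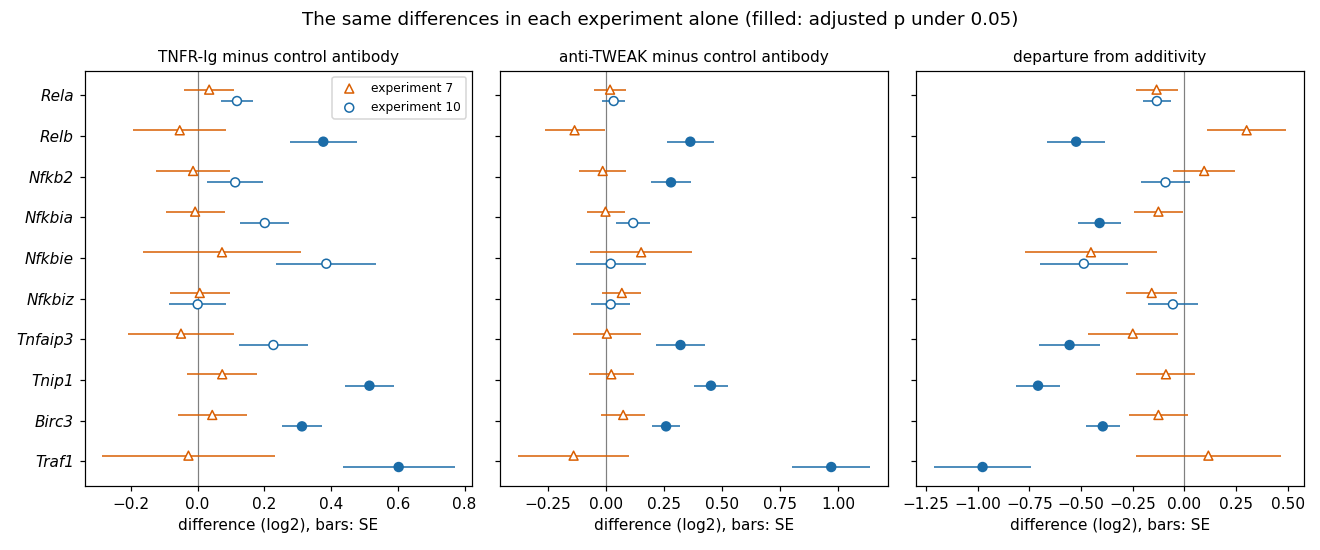
Log2 differences (bars SE) of the 10 genes in experiment 7 (triangles) and experiment 10 (circles) fitted alone, for both single agents against control antibody and for the departure from additivity; filled symbols have an adjusted p under 0.05. Traf1 under anti-TWEAK lies at -0.14 in experiment 7 and 0.97 in experiment 10, and no triangle is filled.

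The combination against the control antibody gave 1 call, Nfkb2, with 31.2% of all genes called. On its brighter probe set Nfkb2 was 6.55, 7.02 and 7.29 with control antibody and 6.72, 7.16 and 7.55 with the combination, and the ranges overlapped widely. The difference was 0.18 ± 0.07 (limma adjusted p 0.036), and the dimmer probe set gave -0.25 ± 0.11 (limma adjusted p over all probe sets 0.090). The call was lost on leaving out any of 7 arrays, and also without the 2 arrays of another run. Nfkbie was -0.16 ± 0.13 and Nfkbia -0.11 ± 0.06, with neither called. Without combination array 7 of experiment 7, 2 genes were called (27.5% of all genes), Nfkb2 and Nfkbia (-0.15 ± 0.05, limma adjusted p 0.030). In experiment 10 alone 4 were called (17.6% of all genes), all higher: Traf1 (0.59 ± 0.16), Nfkb2 (0.30 ± 0.08), Tnip1 (0.26 ± 0.07) and Birc3 (0.18 ± 0.06). In experiment 7 alone limma called none (8.45% of all genes), with no unadjusted p under 0.05 among the 10.

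Of the 31 canonical targets, 15 fell and 2 rose against control antibody (17% of all genes lower and 14.2% higher), also without combination array 7 of experiment 7, with a list median over all arrays of -0.25 against -0.0025 for all genes. Cxcl1 (-2.02 ± 0.54) and Bcl3 (-0.65 ± 0.12) fell. Of the neutrophil markers 7 of 10 fell (median -1.70), as did 2 of 14 monocyte and macrophage markers (median -0.050).

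Against the single agents, Nfkbia was lower with the combination than with TNFR-Ig. Combination mice received an antibody and TNFR-Ig mice none, so anti-TWEAK and antibody as such cannot be told apart here. Nfkbia was 13.70, 14.04 and 14.18 with TNFR-Ig. The median with the combination, 13.74, was near the lowest TNFR-Ig value, and the ranges overlapped. The difference was -0.21 ± 0.06 (limma adjusted p 0.023), and it was the only call among the 10, with 6.71% of all genes called. The call was lost with the compared groups alone. In this comparison 8 of 10 neutrophil markers (median -2.53) and 9 of 14 monocyte and macrophage markers (median -0.53) fell, and 4 of 5 T cell markers rose (median 0.86). Their part in the Nfkbia difference was not tested. Without combination array 7 of experiment 7 there were 5 calls (7.52% of all genes), all lower: Nfkbie (-0.43 ± 0.14), Tnfaip3 (-0.30 ± 0.09), Nfkbia (-0.24 ± 0.06), Tnip1 (-0.21 ± 0.06) and Rela (-0.14 ± 0.04). In experiment 10 alone Nfkbia (-0.29 ± 0.07) and Tnip1 (-0.26 ± 0.07) were lower (5.74% of all genes), and in experiment 7 alone limma called none of the 10 (0.0878% of all genes; none at an unadjusted p under 0.05).

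The combination against anti-TWEAK gave no call among the 10 or among all genes with limma (0% of 12534), while 2 of the 10 and 2258 of all genes had an unadjusted p under 0.05. Tnfaip3, at -0.31 ± 0.09 (limma adjusted p 0.13), and Nfkbia, at -0.17 ± 0.06, were the 2. Without combination array 7 of experiment 7 there was still no call (0% of all genes), and 7 of the 10 had an unadjusted p under 0.05, all lower with the combination, with Tnfaip3 at -0.37 ± 0.09 (limma adjusted p 0.093) and Nfkbia at -0.20 ± 0.05 (limma adjusted p 0.10). Anti-TWEAK against TNFR-Ig also gave no call by limma (0% of all genes). None of the 10 and 378 of all genes had an unadjusted p under 0.05 there, and the 95% interval for Nfkbie was -0.41 to 0.16.

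The title of the study names synergy of TNF and TWEAK in canonical NF-kB activation, which makes the departure from additivity a comparison of interest. It was taken as the combination group mean plus that of the control antibody group, less the means of both single agents. Since the TNFR-Ig mice had no control antibody, the effect of antibody as such does not cancel in it. None of the 10 genes was called by limma, against 0.319% of all genes. Tnip1 (-0.38 ± 0.10, limma adjusted p 0.057), Nfkbia (-0.26 ± 0.08, limma adjusted p 0.098), Birc3 (-0.25 ± 0.08, limma adjusted p 0.11) and Tnfaip3 (-0.39 ± 0.13, limma adjusted p 0.13) came nearest. In all, 6 of the 10 had an unadjusted p under 0.05, and 1792 of all genes did. Of the 10 fitted values 9 lay below 0, with a median of -0.26 against 0.0021 for all genes.

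Without combination array 7 of experiment 7, 4 genes were called (2.66% of all genes): Tnip1 (-0.43 ± 0.09, limma adjusted p 0.0080), Birc3 (-0.30 ± 0.07, limma adjusted p 0.028), Nfkbia (-0.29 ± 0.08, limma adjusted p 0.031) and Tnfaip3 (-0.45 ± 0.13, limma adjusted p 0.039). That array was the highest of its group for all 4, so leaving it out by itself lowers these values. In experiment 10 alone 6 were called (3.68% of all genes), all negative: Traf1 (-0.98 ± 0.24), Tnip1 (-0.71 ± 0.11), Tnfaip3 (-0.56 ± 0.15), Relb (-0.52 ± 0.14), Nfkbia (-0.41 ± 0.10) and Birc3 (-0.40 ± 0.08). In experiment 7 alone limma called none of the 10 and no other gene (0%), with Tnip1 at -0.09 ± 0.14 and Relb at 0.30 ± 0.19. No unadjusted p among the 10 was under 0.05 there. The difference between experiments did not pass for any of the 10, with limma adjusted p 0.067 for both Tnip1 (-0.62 ± 0.18) and Relb (-0.82 ± 0.24). This test called 119 of all 12534 genes.

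Across the 6 groups, the order of fitted Nfkbie levels from lowest to highest was naive, combination, control antibody, anti-TWEAK, TNFR-Ig and untreated. Of the 5 steps in that order only the first, naive to combination, passed the test. The order for Nfkbia was the same, and none of its steps passed, although its ends differed. For Rela it was the same again with no step called. Relb, Nfkb2, Tnip1 and Traf1 had control antibody lowest and naive highest, and of their steps only that from combination to naive in Nfkb2 was called. On the dimmer Nfkb2 probe set naive was lowest instead, followed by combination, control antibody, anti-TWEAK, untreated and TNFR-Ig. Tnfaip3 was lowest with the combination and highest with anti-TWEAK, and Nfkbiz lowest in naive mice and highest with anti-TWEAK, and in neither gene did the ends differ (limma adjusted p 0.13 and 0.14). Birc3 was lowest in naive mice and highest with TNFR-Ig (0.24, limma adjusted p 0.0054), and the ends of Traf1 were apart by 0.45 (limma adjusted p 0.051).

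Levels of 2 of the 10 genes differed between experiments, against 43.4% of all genes. By the labels, experiment 7 was run apart from experiment 10, except for its combination arrays 7 and 8. Experiment and array run were thus not separated here. Over the 64 arrays of mice given TNBS, Traf1 was higher in experiment 10 by 0.67 ± 0.11 (limma adjusted p 3.5e-06) and Relb by 0.16 ± 0.06 (limma adjusted p 0.026). Traf1 with anti-TWEAK was 4.50, 5.17 and 5.87 in the 8 mice of experiment 7 and 6.28, 6.45 and 6.57 in the 6 mice of experiment 10. These sets of mice did not overlap, whereas those of untreated mice did, at 5.36 to 5.99 and 5.58 to 6.09. For all genes such overlap was not counted. Of the 72 Traf1 values, 7 are the identical 5.67, and 8 of the 72 Rela values the identical 9.04.

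Within groups, Nfkbie and Nfkbia followed the neutrophil markers from mouse to mouse. Group means (per experiment) were removed and r was taken over the 64 mice given TNBS. Nfkbie and the mean of 10 neutrophil markers gave Pearson's r 0.82 and Spearman's rho 0.84, and Nfkbia r 0.77 and rho 0.79. In both genes each permutation p was 1e-05, the smallest that 100000 permutations within groups can give (5e-05 after Benjamini-Hochberg adjustment over 10 genes). Without the 2 mice farthest from the median of the marker mean, r was 0.80 for Nfkbie and 0.75 for Nfkbia. It was 0.89 and 0.78 in experiment 7 and 0.72 and 0.77 in experiment 10. Mice with more neutrophil marker signal than their group thus had more signal of both inhibitors.

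Another 5 genes gave positive r as well. The share of all genes that follow the neutrophil markers in this way was not counted, so these counts have no background beside them. Rela gave r 0.47 (rho 0.47), Tnfaip3 0.45 (rho 0.48), Birc3 0.44 (rho 0.39), Nfkbiz 0.39 (rho 0.42) and Tnip1 0.38 (rho 0.44), with permutation adjusted p of at most 0.0029 for r. Relb gave 0.04 (rho 0.01, permutation p 0.80 for r). Traf1 (r -0.37, rho -0.31, permutation adjusted p 0.0049) and Nfkb2 (r -0.37, rho -0.30, permutation adjusted p 0.0053) ran the other way, and for Nfkb2 this held in experiment 7 (r -0.66) but not in experiment 10 (0.079). For Tnip1 and Birc3 r was 0.51 and 0.58 in experiment 7 and 0.16 and 0.17 in experiment 10.

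Among themselves, 7 of the genes formed the 6 closest pairs. Of 45 pairs, r was highest for Nfkbia and Tnfaip3 (0.76, rho 0.75), Nfkbia and Nfkbie (0.71, rho 0.73), Nfkbiz and Tnfaip3 (0.70, rho 0.69), Nfkbia and Nfkbiz (0.68, rho 0.69), Tnfaip3 and Birc3 (0.66, rho 0.56) and Relb and Tnip1 (0.64, rho 0.49). For the first 5 the permutation p of r was 1e-05, and for Relb and Tnip1 5e-05. The largest adjusted p of r over 45 pairs was 0.00028 among these 6. Leaving out combination array 7 of experiment 7, an alternative added after seeing the data, gave 0.72, 0.69, 0.71, 0.68, 0.57 and 0.47 for the same pairs. Nfkb2 and Nfkbie gave the lowest r, -0.49, which was -0.70 in experiment 7 and -0.01 in experiment 10. As the same arrays and scaling enter both members of a pair, these values are descriptions of shared variation between mice.

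**Figure D5:**
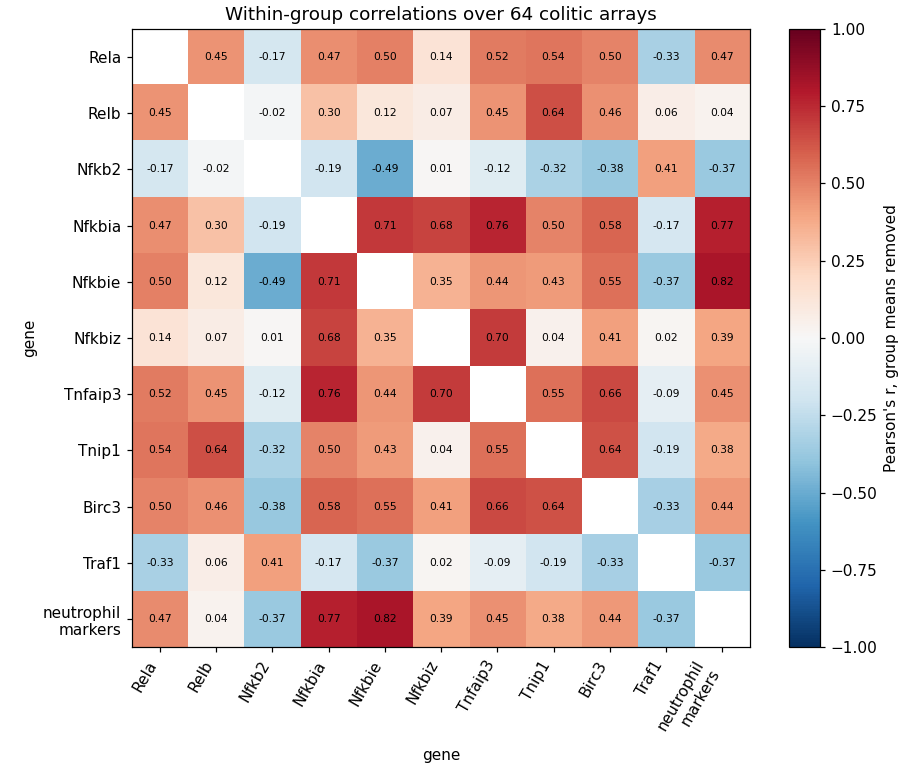
Pearson's r between each pair of the 10 genes, and between each gene and the neutrophil marker mean, over 64 mice given TNBS with group means removed; red is positive and blue negative. The cells of Nfkbia with Tnfaip3 (0.76) and of Nfkbie with neutrophil markers (0.82) are the darkest red of their kinds.

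Over all 12534 genes and 72 arrays, again with group means removed, the genes most like each of the 10 were ranked by Pearson's r. For Nfkbie they were Csf2rb2 (0.90), a cytokine receptor subunit, Hcls1 (0.88), a cytoskeletal adaptor of blood cells, and Ncf4 (0.88), a subunit of the phagocyte oxidase. Nfkbia was nearest to Map3k8 (0.85), to Cd14 (0.82), a co-receptor for bacterial lipopolysaccharide, and to the kinase gene Pim1 (0.82). The nearest to Tnfaip3 were Nfkbia (0.76), Zfp36 (0.74), an mRNA decay factor, and Nfkbiz (0.68). Rela was nearest to Flot2 (0.72), Icam1 (0.66) and Stat3 (0.65), Tnip1 to Irs2 (0.80), Cir1 (0.79) and Nfkbil1 (0.74), and Birc3 to Tnfaip3 (0.64), Spidr (0.63) and Tnip1 (0.63). The first genes for Relb, Nfkb2, Nfkbiz and Traf1 were Ip6k1 (0.74), Cadm1 (0.71), Fgd3 (0.69) and Arl3 (0.74). Likeness here is over mice within groups and says nothing of shared control.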

How the data were processed

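Expression was measured on 72 Affymetrix arrays, and the authors deposited 1 table of log2 values. The submitters' processing notes name RMA, GCRMA, R 2.11.1 and limma 3.4.5, but not which of them gave these values, and no other source used here does. The table has a floor of 2.077, near which differences are compressed. Of 45101 probe sets, 34945 carry 1 gene symbol, 932 several, 9160 none and 64 are controls. Symbols were updated by Entrez identifier (99.4% matched). For each of 18193 genes the probe set of highest mean was taken, and 12534 genes with a mean of at least 2.42 (the 40th percentile) were tested.

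A linear model with group and experiment was fitted in limma 3.58.1 under R 4.3.3, with two-sided moderated tests and Benjamini-Hochberg adjustment over 12534 genes. Errors are SE. Probe sets were tested in a separate fit over all probe sets. The model was tested on simulated data. The labels put each array in its group, 1 mouse per array. The number of arrays limits the precision. Alternatives were another filter, probe set, normalization, array weights, each experiment alone, compared groups alone, a replicate block, and leaving out arrays. Replicate numbers do not pair mice: over 132 pairs with the same number the mean r was -0.006.

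Genes named besides the 10 are the 4 or fewer called members of each list with the largest difference and the 3 most similar genes of each of the 10, with Tnfrsf12a, Tnfrsf1a, Tnfrsf1b and Tnf in any case. The 10 genes and all lists were chosen with earlier results of these data known. Coordinates and sequences are those of RefSeq, GRCm38.p6.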

Additional observations from a re-analysis of the deposited data

Results flagged for a closer look

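Each of the 10 genes was screened in the 11 groups of 1 treatment and 1 experiment for an array whose gap to its nearest neighbour was large for the range of its group (Dixon's ratio). Of 110 combinations 13 were picked out. Chance flags about 1 in 20 groups, and values of different genes on an array are not independent.

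Combination array 7 of experiment 7 accounts for 6 of them. It had the highest level of its group for Rela (9.34, others 8.70 to 9.004), Relb (8.92, others 7.61 to 8.19), Tnfaip3 (11.52, others 10.48 to 10.77), Tnip1 (11.56, others 10.63 to 10.87) and Birc3 (12.30, others 11.49 to 11.74), and the lowest for Traf1 (4.07, others 5.08 to 5.67). Its values bear on every comparison with the combination. The cause was not tested.

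Nfkb2 was low on TNFR-Ig array 1 of experiment 7 (6.68), on combination array 1 of experiment 7 (6.72) and on untreated array 1 of experiment 10 (7.13, where the other 3 arrays share the value 7.15). Nfkbie was low on untreated array 5 of experiment 7 (7.40, others 8.54 to 8.69) and untreated array 3 of experiment 10 (7.87, others 8.69 to 8.78). Nfkbia was low on TNFR-Ig array 7 of experiment 10 (13.74, others 14.00 to 14.08), and Rela on naive array 5 (8.71, others 8.89 to 9.02).

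The effect of anti-TWEAK on Traf1 differed between the experiments by limma's interaction test. Against control antibody it was 1.11 ± 0.30 higher in experiment 10 (adjusted p 0.037), and against untreated mice 1.10 ± 0.36 higher (adjusted p 0.048). Of all 12534 genes, 215 were called in the first test and 841 in the second. Both tests share the anti-TWEAK mice.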

How the results depend on the processing

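Counts are of the 10 genes called. Besides the main fit, the share of all genes was counted for each experiment alone and without combination array 7 of experiment 7. For the other settings it was not counted, so those counts cannot be set against a background. Experiment 10 alone gave 7 for untreated minus naive, 3 for control antibody minus untreated, 4, 6 and 4 for TNFR-Ig, anti-TWEAK and the combination against control antibody, 2 for combination minus TNFR-Ig and 6 for additivity. Experiment 7 alone gave 0 for control antibody minus untreated, for TNFR-Ig and the combination against control antibody, and for combination minus TNFR-Ig. Array weights gave 1 for TNFR-Ig minus untreated, 2, 2 and 3 for TNFR-Ig, anti-TWEAK and the combination against control antibody, 5 for combination minus TNFR-Ig, 2 for combination minus anti-TWEAK and 6 for additivity. Without the 2 arrays of another run there were 2 for TNFR-Ig and 1 for anti-TWEAK against control antibody, 4 for combination minus TNFR-Ig and 4 for additivity. Combination minus control antibody gave 0 with no filter on dim genes, 0 with the second probe set and 0 with the compared groups alone. Combination minus TNFR-Ig gave 2 with the second probe set and 0 with the compared groups alone, and quantile normalization gave 1 for anti-TWEAK minus control antibody.

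Leaving out 1 array at a time gave 0 to 1 for control antibody minus untreated, 1 to 2 for TNFR-Ig minus control antibody, 0 to 1 for anti-TWEAK minus control antibody, 0 to 2 for combination minus control antibody, 1 to 5 for combination minus TNFR-Ig and 0 to 4 for additivity; the last 2 upper ends are without combination array 7 of experiment 7. The second probe set of Nfkb2 reversed its sign against naive (untreated 0.56, control antibody 0.42, TNFR-Ig 0.56, anti-TWEAK 0.51, combination 0.17) and for the combination (against untreated -0.39, control antibody -0.25, TNFR-Ig -0.40). The within-group r of Nfkb2 and neutrophil markers was 0.079 in experiment 10. Causes were not tested. The replicate block gave 4 calls for untreated minus naive, 1 for control antibody minus untreated and 0 for additivity, as without it, and changed no other count; the numbers do not pair the mice (block correlation -0.016). Among single values, 5957 were counted as the same, 133 gained and 41 lost a call, and 9 reversed. A change of sign was counted as a reversal only where a called value was involved. The 5957 therefore include uncalled values that changed sign.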
